A study of Homo sapiens with 24 samples.

Results

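The genes described here are 39 genes of the hypoxia response and of glycolysis: 22 targets of the hypoxia-inducible factors (HIF) and 17 enzymes of the glycolytic pathway. They were taken as the rows of the deposited tables whose Ensembl identifier maps to the listed symbols, out of 37247 gene identifiers. All 39 passed the filter on low counts, which left 14986 genes to be tested.

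In normal oxygen, prolyl hydroxylases of the EGLN family mark HIF alpha subunits for destruction through the VHL ubiquitin ligase. In low oxygen the alpha subunits HIF1A and EPAS1 persist, pair with ARNT and bind DNA at a short core motif. Their targets take up glucose, drive glycolysis, keep pyruvate out of mitochondria, export lactate and protons, and recruit blood vessels. Many cancer cells keep this programme active in normal oxygen.

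RNA was sequenced from MDA-MB-231, an established human breast cancer line of mesenchymal, triple-negative type, engineered to overexpress myocardin related transcription factor A (MRTF-A, gene MRTFA) under doxycycline. MRTF-A is a coactivator that responds to actin and works with serum response factor (SRF). There were 4 lines: control, wild-type MRTF-A (WT), and the mutants dSAP and dSRF, whose names the labels do not spell out. Each line was grown on plates (2D) and on top of matrigel (3D, with 2% matrigel in the medium), with 3 libraries in each of the 8 groups. All groups, control included, are labelled as given 1 ug/ml doxycycline for 72 h and were kept in 10% serum. No group was labelled as hypoxic. The labels do not say whether replicates were separate cultures or how many clones a line comprised, so p-values measure only the spread between these libraries, which may be technical. In these bulk libraries, fewer cells expressing a gene and less RNA of it per cell cannot be told apart.

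Libraries held 13968773 to 23023300 counts (median 18154380). Levels are given as TPM, transcripts scaled to a fixed total, which correct for gene length. Differences are log2 fold changes with their standard error (SE, n = 3 libraries a group) from edgeR's quasi-likelihood test on counts, and a gene is said to rise or fall where its p, adjusted over all genes tested by the Benjamini-Hochberg method, was under 0.05. MRTFA averaged 41.1 and 37.0 TPM in control cells in 2D and 3D, and between 3817 and 10404 TPM in the other 6 groups. It averaged 4302 and 4143 TPM in WT, 8990 and 10404 TPM in dSAP, and 3817 and 4305 TPM in dSRF. Of the comparisons of a mutant with WT, only dSAP in 3D passed the test for MRTFA (1.22 ± 0.39, adjusted p = 0.0489). Library 1 of 3D dSRF stood apart in MRTFA, at 759 TPM against at most 6209 TPM in this group. In it 36 of the 39 genes lay outside the range of the group's other libraries. That count was not made for all genes, and 1 library of 3 often lies outside the range of the others. Log2 differences of the genes named between 3D dSRF and control or WT are also given without library 1 where that moved them by over 1.5 times or changed a call. The line's markers VIM, CD44, AXL and MSN were present in all groups. Of the epithelial genes looked at, KRT18 and EPCAM stood apart in dSRF and CDH1 did not rise with them. KRT18 was at 133 to 398 TPM in the other lines and at 1894 to 4096 TPM in dSRF, and EPCAM at 25.0 to 51.4 against 104 to 264 TPM. CDH1 was at most 1.98 TPM in any library, fell in 2D dSRF (-1.68 ± 0.45) and did not pass in 3D (1.11 ± 0.56). ESR1 and PGR were at most 0.230 TPM, while ERBB2, the third gene of the triple-negative type, was at 40.3 to 64.6 TPM. CD68, a macrophage gene, was at 27.3 to 52.4 TPM in the other lines and 134 to 208 TPM in dSRF. VWF was at most 0.255 TPM in the other lines and 1.21 to 10.5 TPM in dSRF. PTPRC, CD3E, PECAM1, CDH5, HBB and HBA1 were at or near 0 (at most 1.13 TPM). The part of these differences in the results below was not tested.

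Most of these genes changed in the mutant dSRF. Compared with control, 33 of the 39 fell and 4 rose in 2D, and 33 fell and 4 rose in 3D. The same 32 genes, 17 HIF targets and 15 glycolysis enzymes, fell in both cultures. VEGFA, ADM, P4HA2 and PFKFB2 rose in both. Across all genes, 31.5% fell and 34.5% rose in 2D, and 31.3% fell and 35.1% rose in 3D. Shares of all genes were computed for single comparisons only. Counts of genes shared by several comparisons, here and below, therefore do not show whether these genes recurred more often than others. The median log2 difference of the HIF targets was -1.22 in 2D and -0.89 in 3D, and that of the glycolysis enzymes -1.04 and -0.60, beside 0.02 and 0.02 for all genes.

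**Figure D1:**
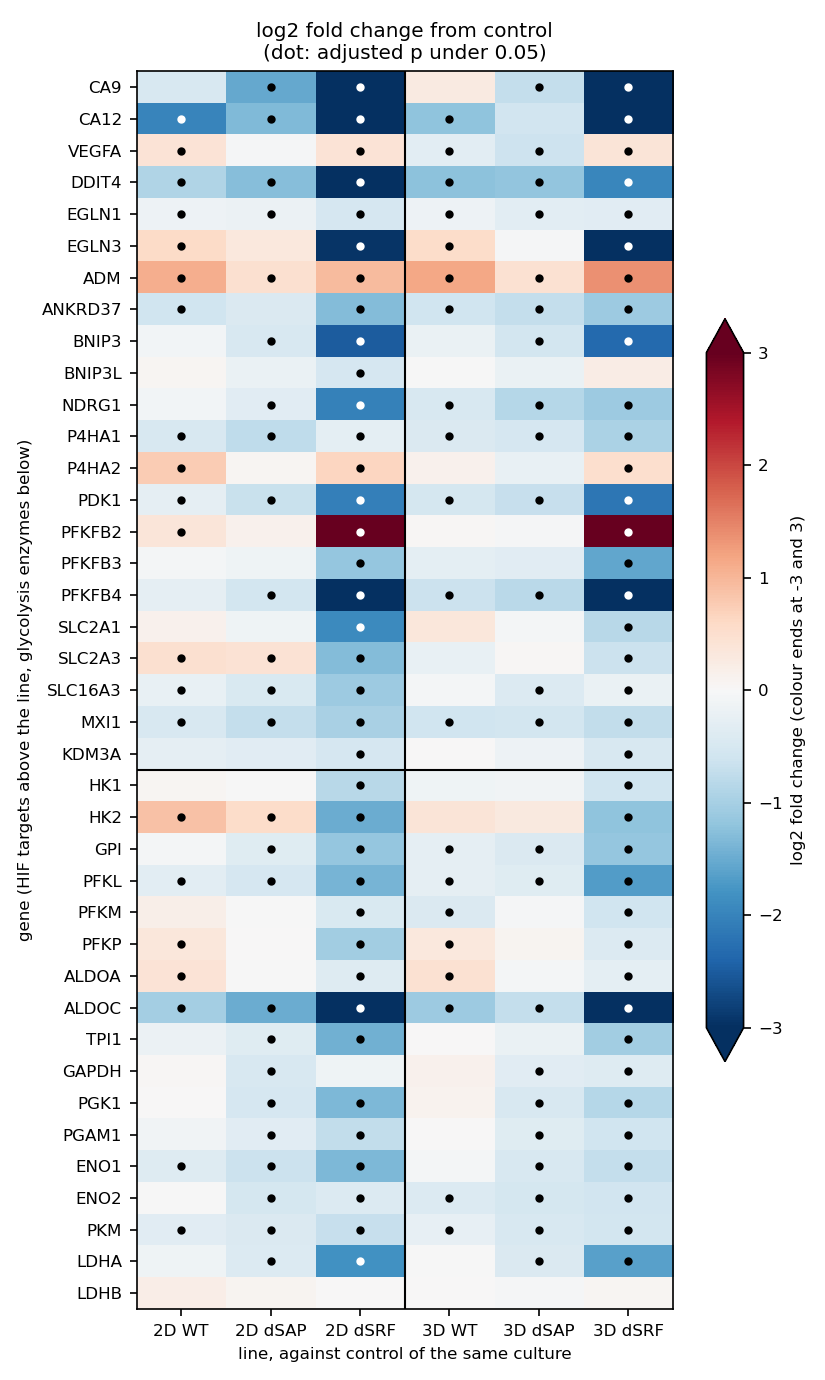
Log2 fold change of each of the 39 genes (rows; HIF targets above the horizontal line, glycolysis enzymes below) in WT, dSAP and dSRF against control of the same culture (columns). Dots mark an adjusted p under 0.05 and the colour scale ends at -3 and 3. The dSRF columns are blue in most rows, with PFKFB2, ADM, P4HA2 and VEGFA red, and ADM is red with a dot in all 6 columns.

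The start of these genes is where HIF binding is usually sought. RefSeq promoters (GRCh38.p14, 250 bases before to 50 after the transcription start) were at hand for 34 of the 39 genes. The HIF core motif, ACGTG or GCGTG on either strand, was in 24 of the 34 (70.6%), against 48.4% of 27305 promoters of all genes. At least 3 cores were in 20.6% of the 34 and in 10.2% of all. It was in 21 of the 30 genes with a promoter that fell in dSRF in both cultures (70.0%) and in 3 of the other 4, which are too few to compare. The CArG box bound by SRF was in 0 of the 34 and in 1.29% of all promoters, too rare for 34 promoters to show a difference. A match of letters is a description, not a binding site. The 250 bases before the start are shown for 6 genes the results turn on, picked after their values were seen: CA9, ALDOC, BNIP3 and LDHA fell in dSRF, LDHB did not pass the test against control in any line, and ADM rose in every line. Capitals mark a core, or CACGT or CACGC where it lies on the other strand. CACGTG holds a core on each strand, counts as 2 and also spells an E-box.
CA9: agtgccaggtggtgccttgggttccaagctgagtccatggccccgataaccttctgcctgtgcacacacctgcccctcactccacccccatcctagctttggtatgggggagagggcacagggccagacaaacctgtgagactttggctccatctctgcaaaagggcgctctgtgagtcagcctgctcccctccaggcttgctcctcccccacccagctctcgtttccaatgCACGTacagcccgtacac
ALDOC: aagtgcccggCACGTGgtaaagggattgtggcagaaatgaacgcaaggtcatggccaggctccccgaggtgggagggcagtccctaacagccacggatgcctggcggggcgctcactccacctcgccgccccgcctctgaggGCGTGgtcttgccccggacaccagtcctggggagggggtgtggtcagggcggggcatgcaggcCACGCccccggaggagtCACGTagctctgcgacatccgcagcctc
BNIP3: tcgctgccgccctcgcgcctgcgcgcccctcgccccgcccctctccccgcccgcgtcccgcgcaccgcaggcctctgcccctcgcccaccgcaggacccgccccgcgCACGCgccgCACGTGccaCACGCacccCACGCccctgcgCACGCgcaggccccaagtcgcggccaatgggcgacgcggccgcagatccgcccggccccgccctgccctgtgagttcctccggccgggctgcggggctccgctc
LDHA: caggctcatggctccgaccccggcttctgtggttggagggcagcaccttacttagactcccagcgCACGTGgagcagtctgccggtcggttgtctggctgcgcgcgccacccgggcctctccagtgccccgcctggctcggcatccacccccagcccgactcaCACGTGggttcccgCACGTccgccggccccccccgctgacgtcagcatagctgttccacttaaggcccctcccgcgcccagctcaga
LDHB: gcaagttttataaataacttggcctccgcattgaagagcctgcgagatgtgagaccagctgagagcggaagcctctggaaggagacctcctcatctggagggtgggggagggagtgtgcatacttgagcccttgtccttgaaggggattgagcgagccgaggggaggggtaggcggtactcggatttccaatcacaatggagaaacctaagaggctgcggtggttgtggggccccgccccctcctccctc
ADM: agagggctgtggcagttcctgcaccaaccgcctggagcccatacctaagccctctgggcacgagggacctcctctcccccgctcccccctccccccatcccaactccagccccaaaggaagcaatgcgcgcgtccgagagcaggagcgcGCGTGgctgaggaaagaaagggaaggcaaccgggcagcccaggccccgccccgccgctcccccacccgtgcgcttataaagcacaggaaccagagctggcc

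The CA9 stretch (chr9:35673678-35673927, plus strand) has 1 core, 13 bases before the start. ALDOC (chr17:28576896-28577145, minus strand) has 5 and BNIP3 (chr10:131981924-131982173, minus strand) has 6. LDHA (chr11:18394313-18394562, plus strand) has 6 in its window, of which 5 lie before the start. LDHB (chr12:21657843-21658092, minus strand) has 1 in its window, after the start, so none in the stretch shown. ADM (chr11:10304823-10305072, plus strand) has 1, 96 bases before the start. ADM and CA9, which moved in opposite directions in dSRF, thus have 1 core each. As the 6 genes were picked by their values, they cannot show whether the number of cores matters.

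Of the pH regulators, CA9 and CA12 are membrane carbonic anhydrases that turn carbon dioxide into bicarbonate and protons outside the cell. CA9 (ENSG00000107159) was at 18.1, 10.9 and 22.5 TPM in 2D control and at 0.918, 0.591 and 0.714 TPM in 2D dSRF. In 3D it was at 18.6, 15 and 12.3 TPM in control and at 0.119, 0.293 and 0 TPM in dSRF. The groups did not overlap in either culture. The log2 difference was -4.99 ± 0.37 in 2D (adjusted p = 5.47e-10) and -6.87 ± 0.44 in 3D (adjusted p = 5.71e-11). However, dSRF rests on 17 counts in 2D (1, 6 and 10 by library) and 5 in 3D, against 630 and 551 in control. The 0.918 TPM of 2D dSRF library 1 thus rests on 1 count. Pooled over libraries, CA9 was 32.6-fold lower in 2D (95% exact interval 20.2 to 56.4) and 126-fold lower in 3D (53.9 to 391), intervals that cover counting error only. CA12 was lower at the start, at 1.57 to 2.27 TPM in 2D control. By the same measure it was 15.5-fold (9.08 to 28.8) lower in 2D dSRF, from 14 counts. In 3D dSRF it was 25.4-fold (17.8 to 37.4) lower, from 32 counts (21, 1 and 10 by library). The 3D value thus rests mostly on library 1. Without library 1 the log2 difference from control in 3D was -5.52 ± 0.37, a larger fall than the pooled 25.4-fold.

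EGLN3 and EGLN1, the HIF prolyl hydroxylases among the 39, both fell. EGLN3, a prolyl hydroxylase that HIF induces and that limits HIF in turn, was at 10.8, 9.10 and 9.73 TPM in 2D control and at 1.26, 0.905 and 1.67 TPM in 2D dSRF. In 3D it was at 17.6, 15.3 and 13.3 TPM in control against 1.09, 1.13 and 0.460 TPM. No dSRF library reached a control library, and the log2 differences were -2.93 ± 0.17 and -4.62 ± 0.18. EGLN1, the main hydroxylase in normal oxygen, fell by 0.51 ± 0.06 and 0.34 ± 0.06, so that EGLN3 made up 13.2% ± 0.907 (SD, n = 3) of the 2 transcripts in 2D control and 2.54% ± 0.903 in 2D dSRF. Outside this pair, DDIT4, an inhibitor of mTOR complex 1 induced by stress, fell from 238, 220 and 243 TPM to 22.9, 26.4 and 27.2 TPM in 2D (-3.31 ± 0.18) and by 1.96 ± 0.17 in 3D. MXI1, an antagonist of MYC, fell by 0.97 ± 0.14 and 0.74 ± 0.14. The histone demethylase KDM3A fell by 0.50 ± 0.17 and 0.47 ± 0.17, and ANKRD37, a small ankyrin protein, by 1.30 ± 0.19 and 1.10 ± 0.18.

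The genes that rose include the secreted factors. ADM, which encodes the vasodilator peptide adrenomedullin, was at 37.7, 37.0 and 33.6 TPM in 2D control and 74.7, 71.8 and 70.0 TPM in 2D dSRF. In 3D it was at 45.7, 42.4 and 41.9 TPM against 94.6, 129 and 127 TPM, and the log2 differences were 0.95 ± 0.07 and 1.37 ± 0.07. VEGFA, the main growth factor for blood vessels, was at 106 to 121 TPM in 2D control and 157 to 161 TPM in dSRF (0.42 ± 0.08), with 0.38 ± 0.08 in 3D. The collagen prolyl hydroxylases split. P4HA2 rose by 0.64 ± 0.16 and 0.51 ± 0.16 (0.77 ± 0.05 in 3D without library 1, which at 136 TPM lay below the 3D control libraries), while P4HA1 fell by 0.30 ± 0.11 and 0.95 ± 0.11, and the share of P4HA2 in their summed TPM went from 38.6% ± 1.36 to 56.9% ± 0.529 in 2D and from 43.1% ± 1.35 to 67.7% ± 4.97 in 3D.

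Among the mitochondrial and stress genes, PDK1, the kinase that switches off pyruvate dehydrogenase, was at 50.7, 47.4 and 49.8 TPM in 2D control and 14.7, 11.1 and 17.4 TPM in 2D dSRF. On matrigel it was at 58.6, 60.5 and 60.2 TPM against 11.4, 14.5 and 14.7 TPM, so the groups were far apart in both cultures (-2.04 ± 0.08 and -2.17 ± 0.08). BNIP3, a receptor for mitophagy, was at 279, 283 and 308 TPM in 2D control and 56.8, 51.3 and 59.7 TPM in dSRF (-2.50 ± 0.18), and in 3D at 186 to 195 TPM against 54.3, 27.1 and 33.0 TPM (-2.34 ± 0.18). Its relative BNIP3L fell by only 0.51 ± 0.12 in 2D and had a log2 difference of 0.22 ± 0.12 in 3D (adjusted p = 0.105). BNIP3 was 60.0% ± 0.756 of the pair in 2D control and 26.8% ± 1.71 in 2D dSRF. NDRG1, a stress-induced protein, fell by 2.02 ± 0.11 in 2D and 1.10 ± 0.11 in 3D. For BNIP3, up to 6.17% of counts in a library lay on near-identical copies elsewhere in the genome.

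The isoenzymes of PFKFB, which make and remove fructose 2,6-bisphosphate and so set the pace of phosphofructokinase, changed places. PFKFB2 (ENSG00000123836) was at 15.6, 9.35 and 13.1 TPM in 2D control and 104, 103 and 101 TPM in 2D dSRF. The 3D libraries were at 9.12, 9.57 and 13.0 TPM against 103, 138 and 145 TPM, which made it the largest rise among the 39 (3.06 ± 0.09, 8.36-fold, adjusted p = 8.51e-16, and 3.59 ± 0.09, 12.1-fold, adjusted p = 6.68e-17). PFKFB4 fell from 34.9, 27.8 and 31.9 TPM to 3.51, 4.36 and 5.65 TPM in 2D (-2.99 ± 0.15), with the same log2 difference in 3D (-2.99 ± 0.14). PFKFB3 fell by 1.15 ± 0.15 and 1.55 ± 0.15. PFKFB2 was 14.2% ± 2.49 of the summed TPM of the 3 in 2D control and 79.6% ± 0.705 in 2D dSRF, and 10.2% ± 1.53 against 83.1% ± 5.60 in 3D.

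Of the transporters, SLC2A1, the main glucose carrier GLUT1, was at 714, 778 and 831 TPM in 2D control and 222, 172 and 259 TPM in 2D dSRF (-1.91 ± 0.22). Its 3D levels were 427, 418 and 417 TPM against 328, 169 and 153 TPM, where library 1 was the high one (-0.83 ± 0.21, and -1.38 ± 0.08 without it). SLC2A3, the carrier GLUT3, fell by 1.31 ± 0.16 in 2D and 0.65 ± 0.16 in 3D (-1.03 ± 0.08 without library 1). SLC16A3, the lactate exporter MCT4, fell from 1093, 1131 and 1156 TPM to 566, 506 and 568 TPM in 2D (-1.10 ± 0.07) and by 0.20 ± 0.06 in 3D.

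**Figure D2:**
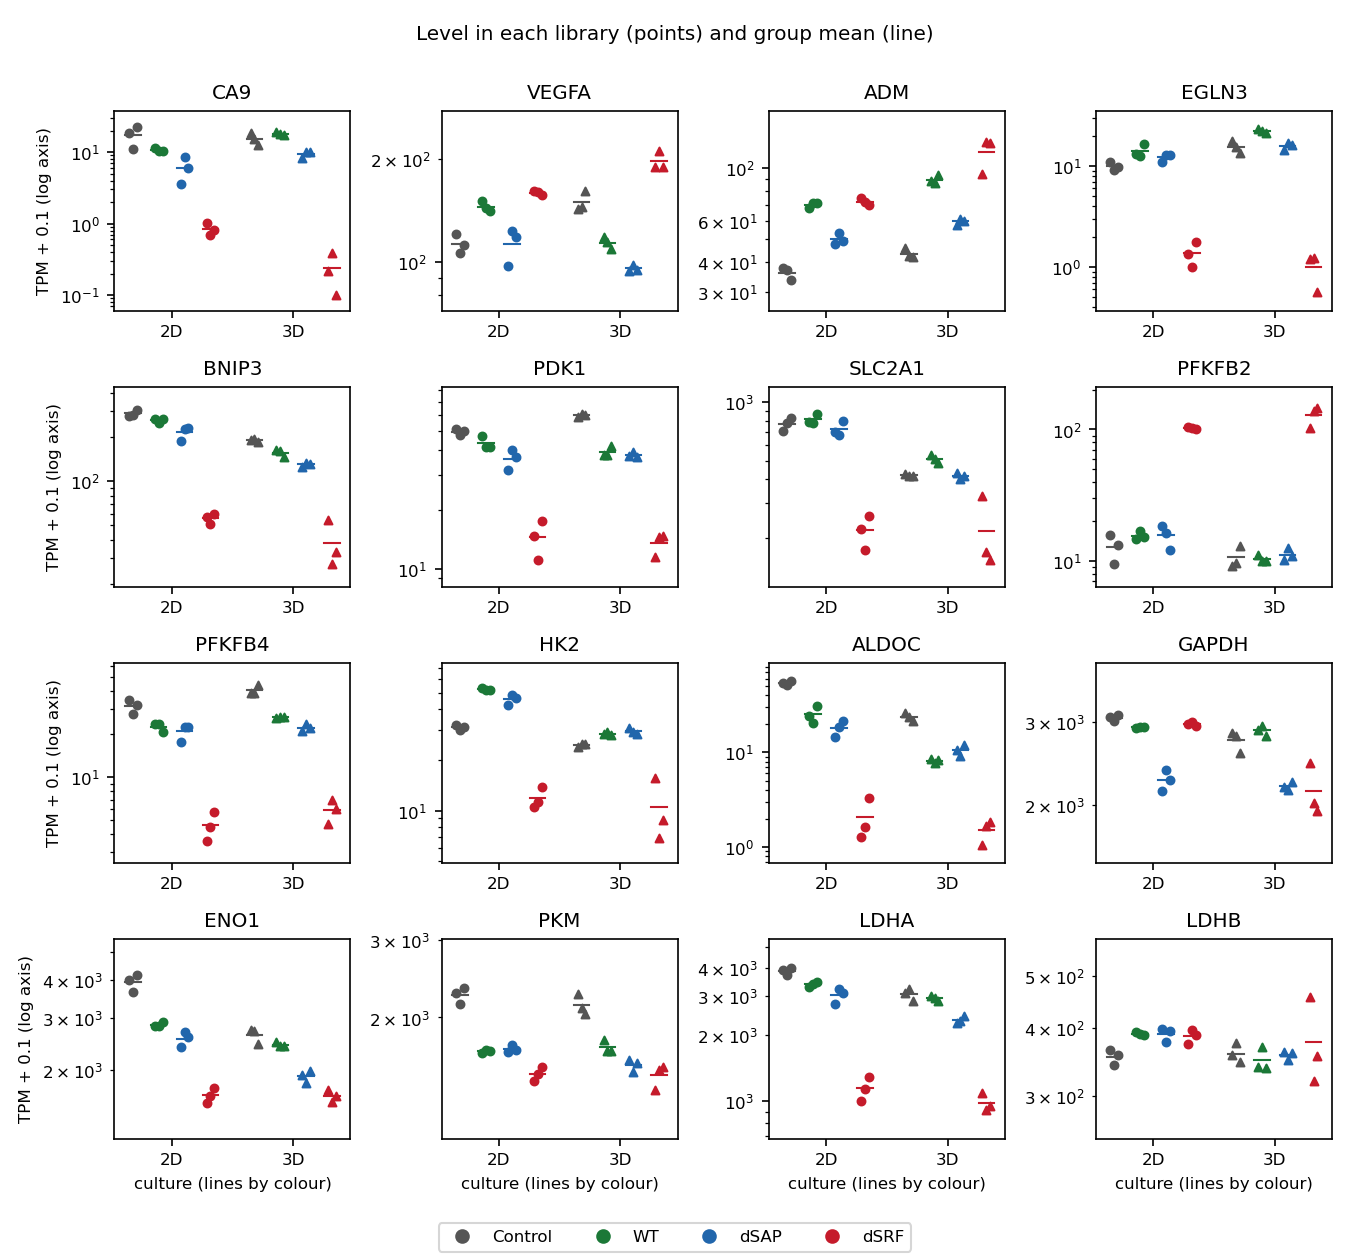
TPM (plus 0.1, log axis) of 16 of the genes in each of the 24 libraries, by culture and coloured by line; circles are 2D and triangles 3D libraries, and the short lines are group means. In dSRF, CA9, EGLN3, ALDOC and PFKFB4 sit far below the other lines, PFKFB2 sits above them (101 to 145 TPM), and GAPDH and LDHB stay near the other lines.

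The glycolytic enzymes are described in the order of the pathway. Of the hexokinases, which trap glucose in the cell, HK1 fell by 0.84 ± 0.07 in 2D and 0.60 ± 0.07 in 3D, and HK2, the form induced by HIF, by 1.49 ± 0.21 and 1.20 ± 0.21. A further form outside the 39, HKDC1, rose by 2.41 ± 0.10 and 1.79 ± 0.09, from 6.95 to 9.10 TPM in control to 39.2 to 44.2 TPM in dSRF in 2D and from 16.9 to 18.7 TPM to 63.4 to 72.0 TPM in 3D. HK2 was at 31.9, 29.9 and 31.4 TPM in 2D control and 10.4, 11.2 and 13.7 TPM in dSRF, and in 3D at 23.7 to 24.7 TPM against 15.6, 6.75 and 8.74 TPM. GPI, the isomerase that follows, fell by 1.15 ± 0.10 in both cultures. All 3 phosphofructokinases fell: PFKL by 1.40 ± 0.08 and 1.67 ± 0.08, PFKP by 1.04 ± 0.12 and 0.42 ± 0.12, and PFKM by 0.46 ± 0.11 and 0.60 ± 0.11.

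Aldolase splits the sugar, and its 2 forms moved unequally. ALDOC was at 53.7, 51.7 and 56.6 TPM in 2D control and 1.17, 1.52 and 3.23 TPM in 2D dSRF, and in 3D at 26.0, 23.5 and 21.2 TPM against 0.954, 1.56 and 1.72 TPM. This was the largest change of any enzyme (-4.62 ± 0.24, adjusted p = 2.74e-12, and -4.25 ± 0.25, adjusted p = 1.97e-11). ALDOA, the abundant form, fell by 0.39 ± 0.05 and 0.29 ± 0.05, and ALDOC was 3.64% ± 0.156 of their summed TPM in 2D control and 0.168% ± 0.0951 in 2D dSRF. TPI1, which interconverts the products of aldolase, fell by 1.43 ± 0.11 and 1.05 ± 0.10.

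In the later steps, GAPDH, the dehydrogenase often used as a reference gene, was at 3062, 3015 and 3095 TPM in 2D control and 2962, 2992 and 2943 TPM in 2D dSRF. It did not pass the test there (-0.14 ± 0.08, adjusted p = 0.145), and fell in 3D by 0.38 ± 0.08 (adjusted p = 0.000601). PGK1, which makes the first ATP of the pathway, fell by 1.34 ± 0.08 and 0.86 ± 0.08, and PGAM1 by 0.74 ± 0.05 and 0.59 ± 0.05. ENO1, with LDHA the most abundant of the 39 in 2D control, fell from 4018, 3663 and 4157 TPM to 1556, 1635 and 1746 TPM (-1.34 ± 0.07), and by 0.71 ± 0.07 in 3D. ENO2 fell by 0.41 ± 0.08 and 0.57 ± 0.07, and PKM, which makes pyruvate, by 0.68 ± 0.05 and 0.56 ± 0.05.

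Lactate dehydrogenase is a tetramer of LDHA and LDHB chains, of which LDHA is the HIF target and favours lactate. LDHA (ENSG00000134333) was at 3946, 3717 and 3996 TPM in 2D control and 1005, 1141 and 1289 TPM in 2D dSRF. In the 3D groups it stood at 3086, 3218 and 2856 TPM against 1094, 919 and 949 TPM (-1.81 ± 0.09, adjusted p = 1.63e-12, and -1.64 ± 0.09, adjusted p = 4.74e-12). LDHB was at 342 to 364 TPM in 2D control and 374 to 397 TPM in 2D dSRF, and in 3D at 346 to 375 TPM against 456, 320 and 355 TPM. Its log2 difference was -0.00 ± 0.09 in 2D and 0.06 ± 0.09 in 3D (adjusted p = 0.974 and 0.575), and turned to -0.12 ± 0.05 in 3D without library 1 (adjusted p = 0.028). LDHA was 91.6% ± 0.147 of the pair in 2D control and 74.6% ± 2.03 in 2D dSRF, and 89.5% ± 0.243 against 72.5% ± 1.81 in 3D. Summed over the 17 enzymes, the level was 18941 ± 720 TPM in 2D control and 10824 ± 376 TPM in 2D dSRF, and 15741 ± 680 against 9753 ± 542 TPM in 3D (mean ± SD, n = 3), with no overlap between groups. With 3 libraries a group an exact permutation test cannot go below p = 0.1, so shares and sums are given with no p.

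**Figure D3:**
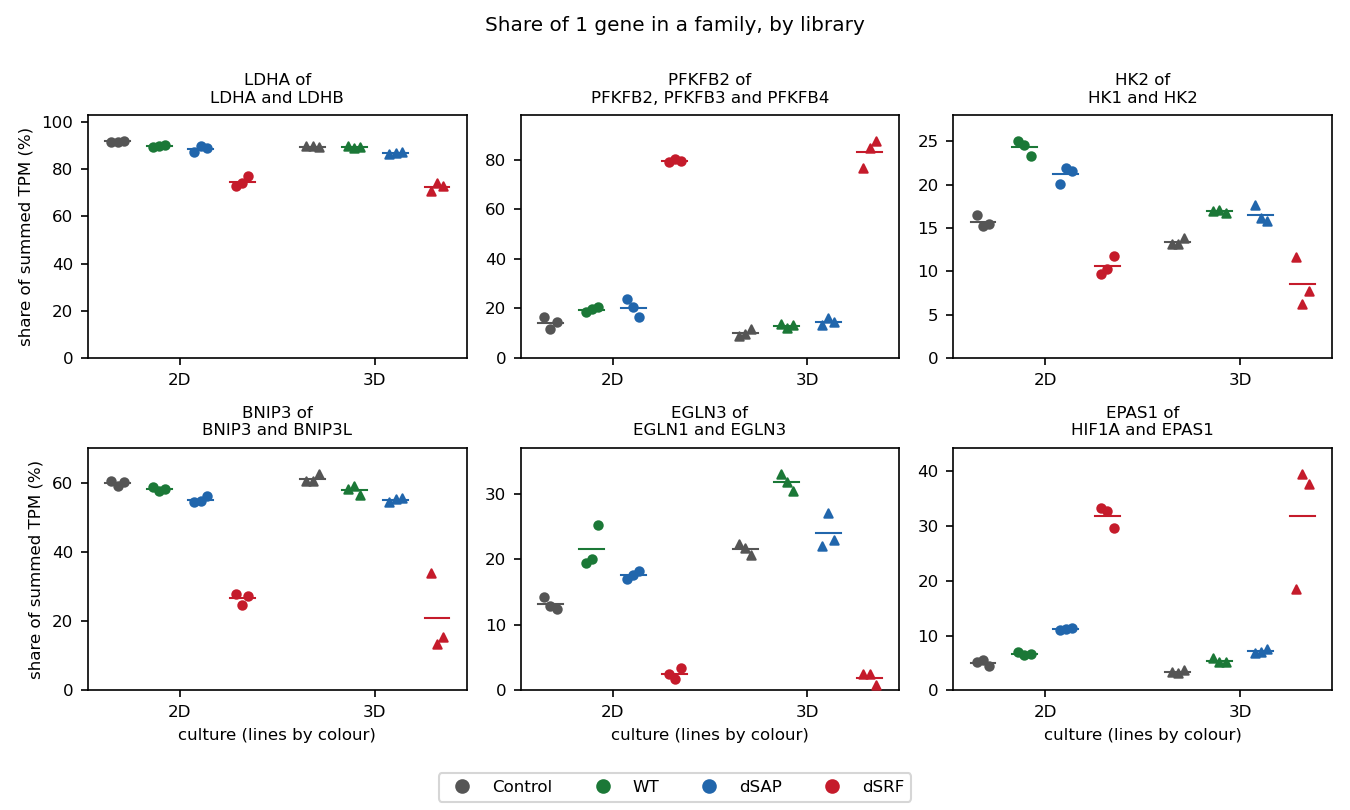
Share of 1 gene in the summed TPM of its family, by library (circles 2D, triangles 3D, colours for lines, short lines for means). The dSRF libraries sit below all others for LDHA (70.6% to 76.9%), BNIP3 and EGLN3, and above all others for PFKFB2 and for EPAS1 of HIF1A and EPAS1 (18.5% to 39.6%).

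In 2D dSRF the TPM of all 39 genes did not overlap with control, and in 3D that of 34, against 67.7% and 55.6% of all genes. Among genes that passed the test these were 37 of 37 and 34 of 37, against 88.4% and 78.4% of all genes that passed. In 3D, 7 calls were lost when only the libraries compared were fitted (adjusted p 0.0631 to 0.21): SLC2A1, SLC2A3, SLC16A3, PFKP, GAPDH, KDM3A and P4HA2. Without library 1 of 3D dSRF all 39 passed, 5 higher and 34 lower, with BNIP3L among the higher (0.41 ± 0.06), and the fall of PFKP became 0.69 ± 0.06, that of HK2 1.76 ± 0.08 and that of BNIP3 2.75 ± 0.10, while that of KDM3A became 0.20 ± 0.06. More of the 39 passed in each of the 17 comparisons without that library. The share of all genes is not given for those fits, for fits without another library or for fits of only the libraries compared. Counts from such fits, here and below, therefore cannot be set against the shares of all genes. In 2D the fall of P4HA1 was lost on log2(TPM + 1) (adjusted p = 0.111) and that of BNIP3L on the same scale with no filter (adjusted p = 0.0578).

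**Figure D4:**
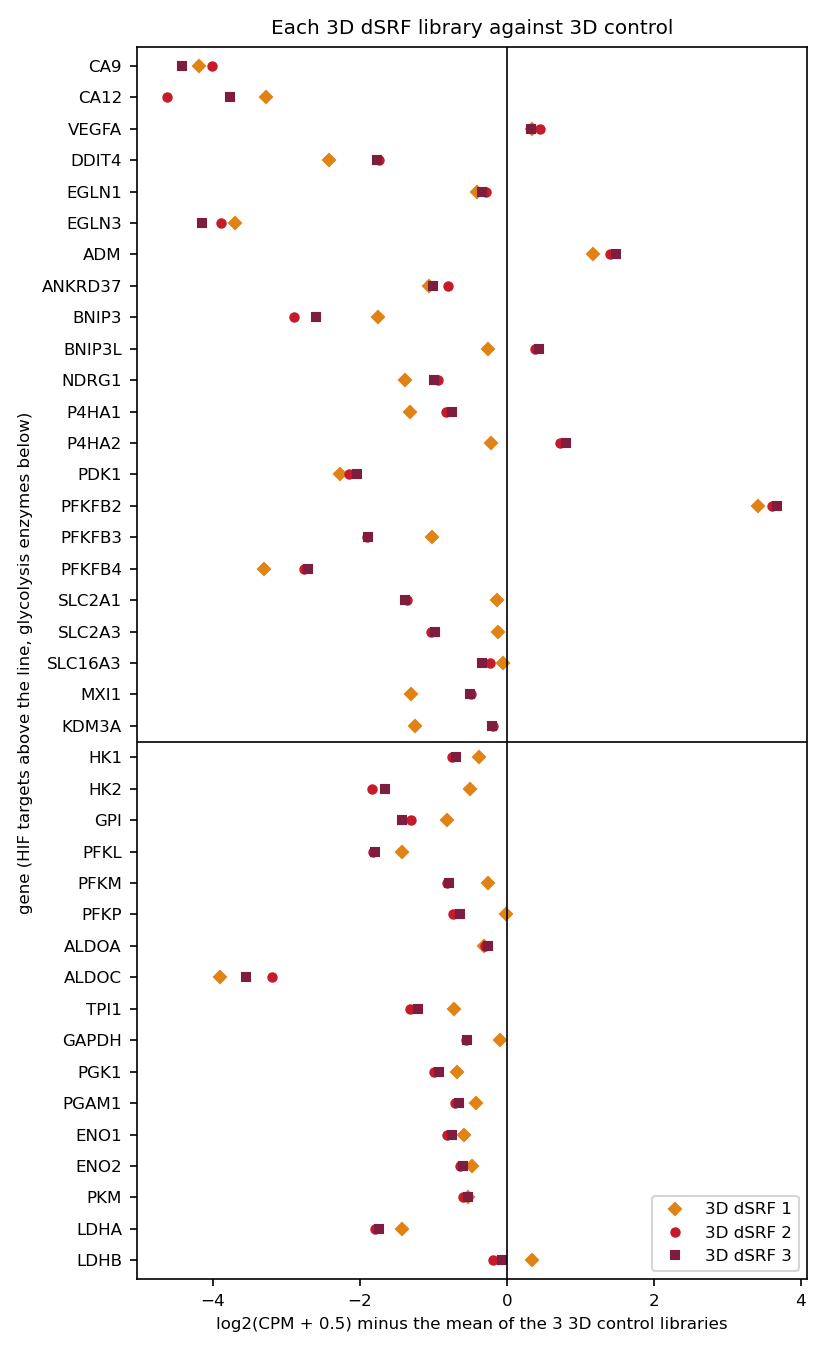
Log2 difference of each 3D dSRF library from the mean of 3D control (log2 of CPM plus 0.5, CPM being counts scaled to a fixed total) for each of the 39 genes. Libraries 2 and 3 lie within 0.5 of each other for all but 1 gene, and library 1 lies over 0.5 from their mean for 18 genes, as for SLC2A1 (-0.13 against -1.36 and -1.38) and P4HA2 (-0.22 against 0.73 and 0.81). These counts were not made for all genes.

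The HIF subunits themselves changed in dSRF. HIF1A was at 471, 512 and 527 TPM in 2D control and 176, 174 and 201 TPM in 2D dSRF (-1.48 ± 0.17, adjusted p = 2.25e-07). On matrigel it was at 379, 331 and 332 TPM against 325, 182 and 178 TPM, where library 1 was just below the lowest control library (-0.60 ± 0.16, a call lost when only the libraries compared were fitted, adjusted p = 0.11, and -1.0 ± 0.06 without library 1). EPAS1, the other alpha subunit, went the opposite way, from 25.8, 30.4 and 24.9 TPM to 88.1, 84.8 and 84.6 TPM in 2D (1.56 ± 0.10) and from 13.3, 10.8 and 12.9 TPM to 73.7, 119 and 108 TPM in 3D (2.95 ± 0.11). ARNT, their shared partner, had log2 differences of -0.21 ± 0.06 and -0.17 ± 0.06, of which the first turned to 0.01 on TPM and the second was lost without library 1 (-0.12, adjusted p = 0.0772). ARNT2 fell by 2.25 ± 0.18 and 1.07 ± 0.17, and VHL by 0.47 ± 0.05 and 0.43 ± 0.05. Of 16 regulators of HIF tested, 1 rose and 9 fell in 2D (6.25% and 56.2%, against 34.5% and 31.5% of all genes), and 4 rose and 8 fell in 3D (25% and 50%, against 35.1% and 31.3%).

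Other genes around the pathway moved in both directions, and their counts are to be read against the shares of all genes that rose and fell, 34.5% and 31.5% in 2D and 35.1% and 31.3% in 3D. Of 27 further HIF targets, 4 rose and 19 fell in 2D (14.8% and 70.4%), and 3 rose and 12 fell in 3D (11.1% and 44.4%), or 5 and 15 without library 1 of 3D dSRF. PPFIA4 fell by 4.50 ± 0.19 and 4.99 ± 0.20, the glycogen branching enzyme GBE1 by 1.93 ± 0.14 and 2.12 ± 0.14, FAM162A by 1.54 ± 0.10 and 1.35 ± 0.10 and the adenylate kinase AK4 by 1.35 ± 0.07 and 0.88 ± 0.07. Of 17 further genes of glycolysis and pyruvate, 13 rose and 2 fell in 2D (76.5% and 11.8%), and 11 rose and 3 fell in 3D (64.7% and 17.6%), with medians of 0.77 and 0.49. Those that rose include TIGAR, a phosphatase that lowers fructose 2,6-bisphosphate (2.20 ± 0.09 and 1.94 ± 0.09), HKDC1, and the gluconeogenic enzymes PCK2 (0.92 ± 0.06 and 1.57 ± 0.06) and FBP1 (0.59 ± 0.08 and 1.96 ± 0.09). Pyruvate carboxylase (PC) fell by 2.02 ± 0.07 and 1.04 ± 0.07. Of 28 genes of pyruvate oxidation and the citric acid cycle, 7 rose and 13 fell in 2D (25% and 46.4%), and 9 rose and 14 fell in 3D (32.1% and 50%), where the share that rose was near that of all genes. PDK2 fell by 1.15 ± 0.07 and 1.34 ± 0.07, while MPC1, a subunit of the mitochondrial pyruvate carrier, rose by 1.89 ± 0.13 and 1.14 ± 0.13.

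Compared with WT, dSRF was again lower in most of these genes. In 2D 31 genes were lower and 1 higher, and in 3D 30 lower and 4 higher, against 30.4% lower and 33.6% higher of all genes in 2D, and 31.6% lower and 34.2% higher in 3D. The genes lower than both control and WT in both cultures numbered 27, of which 14 were HIF targets. PFKFB2 was higher than in WT by 2.71 ± 0.09 in 2D and 3.56 ± 0.09 in 3D. HK2, which rose in 2D WT, was lower in dSRF than in WT by 2.36 ± 0.22 in 2D (log2 difference -2.36), and ALDOA by 0.80 ± 0.05 (-0.80). VEGFA had a log2 difference from WT of 0.01 ± 0.08 in 2D (adjusted p = 0.929) and was 0.70 ± 0.08 higher in 3D. The medians against WT were -0.98 in 2D and -0.51 in 3D for the HIF targets and -0.95 and -0.74 for the enzymes, beside 0.03 and 0.02 for all genes. On log2(TPM + 1) the fall of EGLN1 was lost in both cultures (adjusted p = 0.707 and 0.701), as were those of CA12, BNIP3L and MXI1 in 2D and SLC2A3, SLC16A3 and ANKRD37 in 3D, and with only the libraries compared those of KDM3A and the rises of ADM and P4HA2 in 3D. Without library 1 of 3D dSRF, 32 genes were lower than in WT and 5 higher in 3D: SLC2A3 (-0.79, from -0.42), SLC16A3 (-0.24, from -0.15) and P4HA2 (0.64, from 0.38) moved away from WT and KDM3A towards it (-0.22, from -0.49). The call of ANKRD37 was lost there (adjusted p = 0.0596), while BNIP3L (0.42), PFKM (-0.39), ENO2 (-0.21) and LDHB (-0.14), which had not passed, did.

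Wild-type MRTF-A moved fewer of these genes, and in both directions. In 2D, 9 rose and 12 fell, and in 3D 4 rose and 16 fell, against 20.1% of all genes higher and 19.2% lower in 2D, and 18.0% higher and 17% lower in 3D. The medians were -0.12 and -0.22 for the HIF targets and -0.01 and -0.01 for the enzymes, beside -0.02 and -0.02 for all genes. Of the HIF targets 6 rose and 8 fell in 2D, and 2 rose and 10 fell in 3D. The same 10 genes fell in both cultures (CA12, DDIT4, EGLN1, ANKRD37, P4HA1, PDK1, MXI1, PFKL, ALDOC and PKM), and EGLN3, ADM, PFKP and ALDOA rose in both.

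ADM was at 67.5, 71.1 and 71.0 TPM in 2D WT and 88.4, 86.4 and 93.2 TPM in 3D WT, above all control libraries (1.09 ± 0.07 and 1.15 ± 0.07). Among the 39 genes this was the largest rise in WT in either culture. HK2 was at 53.5, 52.1 and 51.8 TPM in 2D WT against 29.9 to 31.9 TPM in control (0.87 ± 0.20), and had a log2 difference of 0.38 ± 0.20 in 3D (adjusted p = 0.173). ALDOA rose by 0.42 ± 0.05 and 0.45 ± 0.05, P4HA2 by 0.75 ± 0.16 in 2D, and EGLN3 by 0.57 ± 0.13 and 0.54 ± 0.13.

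The falls in WT were led by CA12, DDIT4 and ALDOC. CA12 was at 0.492, 0.298 and 0.438 TPM in 2D WT against 2.27, 1.57 and 2.26 TPM in control (-1.99 ± 0.37), and fell by 1.20 ± 0.31 in 3D. DDIT4 was at 114, 111 and 123 TPM in 2D WT and 81.5, 74.2 and 68.2 TPM in 3D WT (-0.91 ± 0.16 and -1.23 ± 0.17). ALDOC was at 23.8, 20.4 and 31.0 TPM in 2D WT and 8.33, 7.69 and 8.23 TPM in 3D WT (-1.03 ± 0.19 and -1.08 ± 0.20). The enzymes TPI1, GAPDH, PGK1, PGAM1 and LDHA, all of which fell in dSRF in at least 1 culture, did not pass the test in WT in either culture. CA9, which fell in both mutants, had log2 differences of -0.49 ± 0.26 and 0.26 ± 0.26 in WT (adjusted p = 0.151 and 0.487). Library 1 of 3D dSRF enters these tests only through the shared estimate of spread. Without it, 11 of the HIF targets and enzymes rose and 16 fell in 2D WT, and 8 rose and 20 fell in 3D WT. A call missing in WT therefore does not show that a gene was unchanged.

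VEGFA rose in 2D WT by 0.41 ± 0.08, from 106 to 121 TPM in control to 141 to 151 TPM, and fell in 3D WT by 0.32 ± 0.08, from 143 to 161 TPM to 109 to 118 TPM. Both calls held in every alternative. HIF1A had log2 differences of 0.31 ± 0.16 and 0.03 ± 0.16 and passed in neither culture, while EPAS1 rose by 0.69 ± 0.10 and 0.71 ± 0.11. SIAH2, a ubiquitin ligase that acts on the prolyl hydroxylases, rose by 1.21 ± 0.09 and 0.87 ± 0.09. SLC16A7, a carrier of lactate and pyruvate, rose by 3.33 ± 0.20 and 4.17 ± 0.20. Of the 27 further HIF targets 8 rose and 4 fell in 2D, and 10 rose and 4 fell in 3D. Of all genes 20.1% rose and 19.2% fell in 2D WT, and 18.0% rose and 17% fell in 3D WT. The share of the further HIF targets that rose was thus 29.6% in 2D and 37% in 3D, above that of all genes. The share that fell, 14.8% in both cultures, was near that of all genes. On a TPM scale the rises of SLC2A3, PFKFB2 and EGLN3 and the fall of PDK1 were lost in 2D, and the falls of EGLN1 and the rise of EGLN3 in 3D. PFKP and EGLN1 in 2D, and PFKP, GPI and EGLN1 in 3D, were lost without most single libraries of the groups compared, and SLC16A3 and ANKRD37 without 1 or 2 of them.

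The mutant dSAP lowered far more of these genes than it raised. In 2D 3 rose and 22 fell, and in 3D 1 rose and 22 fell, against 17.5% of all genes higher and 15.4% lower in 2D, and 16.5% higher and 13.1% lower in 3D. The medians were -0.33 and -0.45 for the HIF targets and -0.37 and -0.36 for the enzymes, beside -0.01 and 0.00 for all genes. In both cultures 20 genes fell, 10 HIF targets and 10 enzymes, among them the payoff enzymes GAPDH, PGK1, PGAM1, ENO1, PKM and LDHA. Without library 1 of 3D dSRF, 4 genes rose and 25 fell in 2D dSAP, and 2 rose and 29 fell in 3D dSAP.

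The payoff enzymes moved by similar amounts. GAPDH was at 2140, 2369 and 2255 TPM in 2D dSAP and 2184, 2151 and 2233 TPM in 3D dSAP, below all control libraries (-0.48 ± 0.09 and -0.34 ± 0.08). PGK1 fell by 0.50 ± 0.08 and 0.48 ± 0.08, ENO1 by 0.65 ± 0.07 and 0.48 ± 0.07, PKM by 0.43 ± 0.05 and 0.49 ± 0.05, and LDHA by 0.40 ± 0.09 and 0.43 ± 0.09. Summed over the 17 enzymes the level was 14566 ± 821 TPM in 2D dSAP and 12552 ± 324 TPM in 3D dSAP.

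Of the HIF targets, DDIT4 fell in both cultures, to 71.6, 118 and 106 TPM in 2D and 83.9, 76.0 and 93.2 TPM in 3D (-1.28 ± 0.16 and -1.19 ± 0.17). CA9 was at 3.46, 8.46 and 5.98 TPM in 2D dSAP (-1.53 ± 0.27) and 8.15, 9.87 and 9.96 TPM in 3D dSAP (-0.71 ± 0.26). PDK1 fell by 0.66 ± 0.08 and 0.70 ± 0.08, and PFKFB4 by 0.54 ± 0.13 and 0.81 ± 0.13. ADM rose, by 0.49 ± 0.07 and 0.45 ± 0.07, and was the only gene to rise in all 6 comparisons of a line with control. The 8 genes that fell in all 6 were DDIT4, EGLN1, P4HA1, PDK1, MXI1, PFKL, ALDOC and PKM, and the 3 comparisons of a culture share its control libraries. EPAS1 rose by 1.07 ± 0.10 and 1.05 ± 0.11 in dSAP, and HIF1A had log2 differences of -0.10 ± 0.16 and -0.06 ± 0.16 and passed in neither culture. In 2D the calls of SLC2A3, NDRG1, EGLN1, HK2, BNIP3 and TPI1 were lost in at least 1 alternative or without 1 library, and in 3D those of CA9 (in 5 alternatives and without each of 5 single libraries), EGLN1 and BNIP3.

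Set against WT, dSAP was lower in 14 genes in 2D and in 13 in 3D, and higher only in PFKM in 3D, against 7.71% of all genes lower and 5.09% higher in 2D, and 6.63% lower and 5.45% higher in 3D. MRTFA RNA averaged 8990 TPM in dSAP against 4302 TPM in WT in 2D, which did not pass the test (0.95 ± 0.39, adjusted p = 0.124). In 3D it averaged 10404 against 4143 TPM and passed (1.22 ± 0.39, adjusted p = 0.0489). Its TPM did not overlap in either culture, as was so for 40.4% and 40.8% of all genes. The part of the MRTFA level in the differences between dSAP and WT was not tested. In both cultures 10 genes were lower: CA9, VEGFA, ADM, SLC16A3, ALDOA, GAPDH, PGK1, PGAM1, ENO1 and LDHA. ADM was lower by 0.60 ± 0.07 in 2D (log2 difference -0.60) and 0.70 ± 0.07 in 3D (-0.70). The log2 differences were -0.43 ± 0.05 and -0.52 ± 0.05 for ALDOA, and -0.51 ± 0.08 and -0.58 ± 0.08 for PGK1. The medians were -0.25 and -0.17 for the HIF targets and -0.28 and -0.20 for the enzymes, beside 0.00 and 0.02 for all genes. The count in 2D rests on few libraries: it was 9 without WT 3 or without dSAP 1, and 27 without library 1 of 3D dSRF, which takes part only in the shared estimate of spread. In 3D it was 25 without that library. On log2(TPM + 1), ENO1, LDHA, SLC16A3 and PDK1 were lost in 2D, and PKM, NDRG1 and EGLN3 in 3D, and CA9 on log2(TPM + 0.1) in both cultures. Without most single libraries of the groups compared, the calls of LDHA, GPI and ENO1 were lost in 2D and those of NDRG1, PFKM and CA9 in 3D. Those of SLC16A3 and CA9 in 2D and VEGFA in 3D were lost without 3, 2 and 1 of them. Of the 10 genes lower in both cultures, ADM, ALDOA, GAPDH, PGK1 and PGAM1 kept both calls in every alternative.

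Many of these genes were lower on matrigel in 3 of the lines. Compared with 2D, 20 fell and 8 rose in 3D control, 24 fell and 4 rose in 3D WT, and 22 fell and 5 rose in 3D dSAP. Of all genes 24.4% were lower and 23.0% higher in control, 25.7% and 24.4% in WT, and 23.5% and 24.2% in dSAP. The medians were -0.04, -0.31 and -0.25 for the HIF targets and -0.29, -0.30 and -0.29 for the enzymes, beside 0.00, 0.00 and 0.01 for all genes. The same 18 genes fell in all 3 lines, and CA12 and P4HA1 rose in all 3, with no such share of all genes to set beside them.

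**Figure D5:**
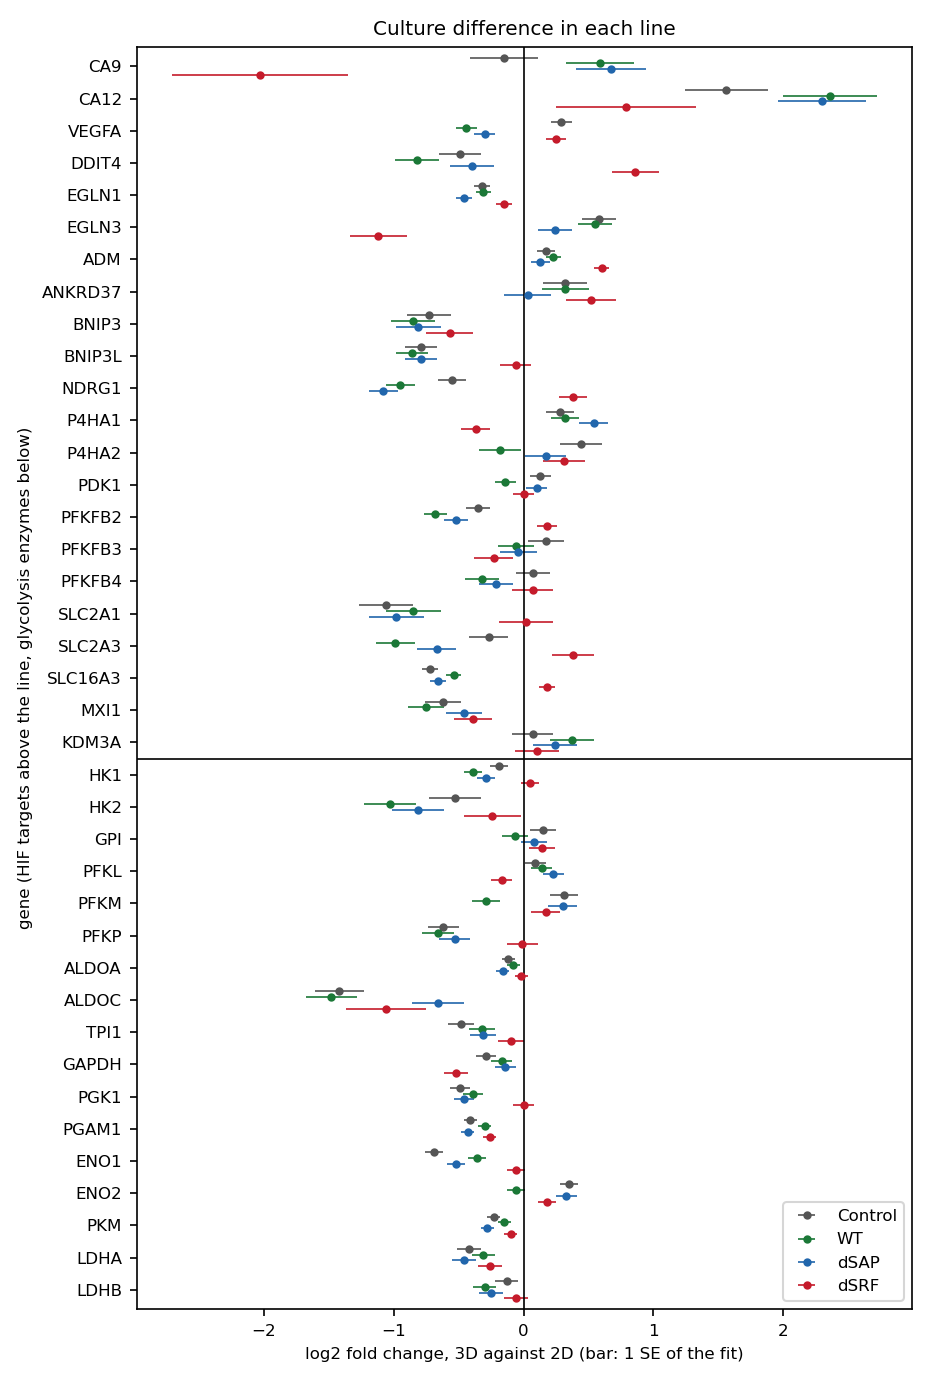
Log2 fold change of 3D against 2D with its SE for each of the 39 genes in control, WT, dSAP and dSRF. SLC2A1, BNIP3L, SLC16A3 and ENO1 lie below 0 in control, WT and dSAP, CA12 lies above 1.5 in those lines, and most dSRF points lie near 0.

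SLC2A1 was at 714, 778 and 831 TPM in 2D control and 427, 418 and 417 TPM in 3D control (-1.06 ± 0.21), and fell by 0.85 ± 0.21 in WT and 0.98 ± 0.21 in dSAP. BNIP3L, at 182, 195 and 203 TPM in 2D control and 124, 127 and 110 TPM in 3D control, fell by 0.79 ± 0.12, 0.86 ± 0.12 and 0.79 ± 0.12 in the 3 lines. Both genes thus had groups that did not overlap. ALDOC fell by 1.42 ± 0.19, 1.48 ± 0.20 and 0.66 ± 0.20, and NDRG1 by 0.55 ± 0.11, 0.95 ± 0.11 and 1.08 ± 0.11. SLC16A3 fell by 0.72 ± 0.06, 0.54 ± 0.06 and 0.66 ± 0.06, and LDHA by 0.42 ± 0.09, 0.31 ± 0.09 and 0.46 ± 0.09.

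CA12 rose in 3D, from 2.27, 1.57 and 2.26 TPM to 6.69, 6.81 and 4.89 TPM in control (1.56 ± 0.32), by 2.36 ± 0.36 in WT and by 2.30 ± 0.34 in dSAP. CA9 did not pass the test in any of these 3 lines (-0.15 ± 0.26, 0.59 ± 0.26 and 0.67 ± 0.27). EGLN3 rose by 0.58 ± 0.13 in control and 0.55 ± 0.13 in WT. PDK1, GPI and PFKFB3 passed in none of the 4 lines. HIF1A fell in 3D control by 0.61 ± 0.16 and EPAS1 by 1.25 ± 0.11. The share of counts from the mitochondrial genome was higher in 3D than in 2D in these 3 lines (group means 1.18% to 1.31% against 0.621% to 0.723% in the other 5 groups), and that of replication-dependent histone genes, which are expressed in S phase, was higher there too (from 0.352% to 0.486% in control, 0.184% to 0.415% in WT and 0.207% to 0.333% in dSAP). In dSRF the histone share was 0.0954% in 2D and 0.102% in 3D (0.0565% to 0.187%), and that of ribosomal protein genes 2.13% and 1.90%, against 2.90% and 2.69% in control. The part of these shares in the differences between cultures or lines was not tested.

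In dSRF 3D culture changed 11 genes, 4 higher (VEGFA, DDIT4, NDRG1 and ADM) and 7 lower, against 7.19% of all genes higher and 9.84% lower. The medians were 0.09 and -0.06 for the 2 lists beside -0.02 for all genes. ADM rose by 0.60 ± 0.06 and DDIT4 by 0.86 ± 0.18. Over all genes tested, library 1 of 3D dSRF correlated more with the mean of 2D dSRF (r = 0.971) than with that of 3D dSRF 2 and 3 (r = 0.952). None of the 11 passed when only the 6 dSRF libraries were fitted, and without library 1 of 3D dSRF 20 passed, among them SLC2A1, whose log2 difference went from 0.02 ± 0.21 to -0.53. The count was 6 without 2D dSRF 2 and 5 without 2D dSRF 3. On log2(TPM + 1), 12 of the 39 rose and 15 fell in control, 7 rose and 18 fell in WT, and 9 rose and 16 fell in dSAP. Of all genes 3735 rose and 2273 fell on that scale in control (3446 and 3651 on counts), 4146 and 2354 in WT (3651 and 3847), and 3941 and 2216 in dSAP (3634 and 3529). The falls of PKM, EGLN1, TPI1, HK1, HK2, DDIT4 and PFKFB2 were among those lost on a TPM scale in at least 1 of the 3 lines, and PKM and PFKFB4 in WT turned to 0.03 and 0.21. The rise of ADM in control was lost with RLE size factors (adjusted p = 0.0501) and with DESeq2 (adjusted p = 0.0739), and those of P4HA1, P4HA2 and PFKM without several single libraries.

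Whether a line's effect differed between cultures was tested with an interaction term, as the difference from control in 3D minus that in 2D. For dSRF 11 genes were higher and 2 lower by this measure, against 14.7% of all genes higher and 14.6% lower. DDIT4 (1.35 ± 0.24), SLC2A1 (1.07 ± 0.30), NDRG1 (0.92 ± 0.16) and SLC16A3 (0.90 ± 0.09) fell less in 3D than in 2D, and EGLN3 (-1.69 ± 0.26) and P4HA1 (-0.64 ± 0.16) fell more. Without library 1 of 3D dSRF these values were 1.55, 0.53, 1.05 and 0.82, and -1.92 and -0.49, and 23 genes passed. With only the libraries compared the calls of SLC2A1 (adjusted p = 0.0804), SLC2A3 (0.145) and PFKP (0.0651) were lost, on log2(TPM + 1) those of SLC2A3 (0.218) and PFKFB2 (0.116), and that of SLC2A3 also without each of 6 single libraries. The levels behind the value of SLC16A3 differ in control: it was at 1093 to 1156 TPM in 2D control and 687 to 757 TPM in 3D control, and at 506 to 568 and 581 to 677 TPM in dSRF. For WT, 1 gene was higher (ENO1, 0.33 ± 0.10) and 4 lower, against 4.22% and 4.96% of all genes, with VEGFA first (-0.73 ± 0.11, adjusted p = 0.000159). For dSAP, VEGFA alone passed (-0.60 ± 0.11, adjusted p = 0.00376), against 1.13% of all genes higher and 1.20% lower. The WT count was 2 or 3 without any of 11 of the 12 libraries compared and 16 without library 1 of 3D dSRF, and of its 5 genes VEGFA alone kept its call without each library in turn.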

How the data were processed

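RNA was sequenced in 24 libraries of MDA-MB-231 in 8 groups of 3. The labels' protocols describe total RNA depleted of ribosomal RNA, while their molecule field says polyA RNA. The authors used FastQC, Salmon (version 11.3 as written) and hg38, per the submitters' processing notes, and no source used here names the annotation. They deposited expected counts and TPM per gene.

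Groups follow the titles, since the genotype field differs from them in 16 libraries, and MRTFA levels were checked. Gene identifiers were named with GENCODE 29 (34620 of 37247 matched). Deposited expected counts were rounded, filtered with filterByExpr, scaled with TMM (factors 0.890 to 1.09) and fitted in 1 quasi-likelihood model of 8 groups with edgeR 4.0.16 in R 4.3.3 (robust, 16 residual degrees of freedom, common biological variation 13.1%), for 17 comparisons. The code was tested on simulated data. As alternatives, the fit was repeated with a replicate block, with only the libraries compared, without each library in turn, without the filter, with RLE scaling, in DESeq2 1.42.0, and in limma 3.58.1 on log2(TPM + 1), with and without the filter, and log2(TPM + 0.1). Replicate numbers did not pair the libraries.

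All 39 genes could be named, with values per library for those called most often or changed most. From each further list, up to 5 genes of lowest p in a comparison were named, besides HIF1A, EPAS1 and ARNT. The genes and lists were chosen with earlier results of these data known.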

Additional observations from a re-analysis of the deposited data

Results flagged for a closer look

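The effect of a line differed between 3D and 2D, by the interaction term of edgeR's quasi-likelihood test, in the following genes (log2 difference from control in 3D minus that in 2D). For WT the values were -0.73 for VEGFA, -0.71 for SLC2A3, -0.60 for PFKM, -0.40 for ENO2 and 0.33 for ENO1. VEGFA rose in 2D WT and fell in 3D WT. For dSAP the value of VEGFA was -0.60.

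For dSRF the genes with a positive value were DDIT4 (1.35, and 1.55 without library 1 of 3D dSRF), SLC2A1 (1.07, and 0.53), NDRG1 (0.92, and 1.05), SLC16A3 (0.90, and 0.82), BNIP3L (0.72, and 0.92), SLC2A3 (0.65, and 0.28), ENO1 (0.63, and 0.56), PFKP (0.61, and 0.35), PFKFB2 (0.53, and 0.60), PGK1 (0.49, and 0.39) and ADM (0.43, and 0.51). Those with a negative value were EGLN3 (-1.69, and -1.92) and P4HA1 (-0.64, and -0.49). SLC2A1, SLC2A3 and PFKP, whose values fell the most without library 1, are also genes whose level in that library was near control. The calls of these 3 were lost with only the libraries compared, and those of SLC2A3 and PFKFB2 on each TPM scale.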

How the results depend on the processing

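Of 370 calls of the 39 genes over the 17 comparisons, 267 kept their direction and their side of the threshold in every alternative, 103 fell short of it in at least 1, and 2 turned. On log2(TPM + 1), 47 calls were lost, on log2(TPM + 0.1) 49, on log2(TPM + 1) with no filter 58, on counts with no filter 25, with only the libraries compared 28, with a replicate block 8, with RLE 2 and with DESeq2 1. The 2 that turned were 3D against 2D in WT, for PKM (0.03 on each of the 3 TPM fits) and PFKFB4 (0.21, 0.22 and 0.21). Among genes of the further lists that passed, DLD in 2D WT turned to -0.05, HIF1AN in 3D WT to -0.12, and WSB1 and ARNT in 2D dSRF to 0.01 on the 3 TPM fits. Among values that had not passed, leaving out 1 library gave LDHB in 3D dSRF -0.12 to 0.16 against control and -0.14 to 0.15 against WT, SLC2A1 in 3D against 2D dSRF -0.53 to 0.23, and HK2 in the dSRF interaction -0.27 to 0.53; each negative value came without library 1 of 3D dSRF.

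The 14 genes called in 2D dSAP against WT became 9 on log2(TPM + 0.1), 8 on log2(TPM + 1) with no filter and 25 with only the libraries compared, where the 14 of 3D dSAP against WT became 29. The 11 of 3D against 2D dSRF became 0 in that fit. The 5 of the WT interaction became 3 with no filter, 3 with a replicate block and 22 with only the libraries compared, and the 1 of the dSAP interaction 2 with DESeq2 and 5 in that fit. Leaving out 1 library gave 9 to 27 and 10 to 25 genes for dSAP against WT in 2D and 3D, 5 to 20 for 3D against 2D dSRF, and 2 to 16, 1 to 7 and 12 to 23 for the WT, dSAP and dSRF interactions; each highest count came without library 1 of 3D dSRF. The replicate block ended the calls of LDHA in 2D dSAP against WT (adjusted p = 0.0567), PFKP in 3D WT, CA9 in 3D dSAP, SLC16A3 in 3D dSRF against WT, ADM in 3D against 2D control, CA9 in 3D against 2D dSRF, and SLC2A3 and ENO1 in the WT interaction (adjusted p of these 8 from 0.0505 to 0.0634). It changed the count by more than 1.5 times in no other comparison. Libraries with the same number had a median correlation of -0.012 (84 pairs, -0.131 to 0.122), and 1 of 24 correlated best with its own number.

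A TPM scale moved the balance of all genes: in 2D WT 1980 rose and 3252 fell (3012 and 2879 on counts), in 2D dSAP against WT 1404 and 455 (763 and 1156), and in 2D dSRF against WT 6026 and 2996 (5039 and 4555), where the median of all genes was 0.18 against 0.03. Of the 39 genes, 2 rose and 27 fell there on that scale. Few counts limit CA9 and CA12 in dSRF.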
